A study of Mus musculus with 7 samples.

Results

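The genes described here are 39 enzymes and partners that write, erase or read acetylation and methylation of histones and methylation of DNA, and that are widely studied in memory. They were chosen by name, with earlier results of these data known. Each is a gene whose symbol stands in a list of 39 symbols, and all 39 were found, once each, among the 17732 genes of the authors' deposited table. By function they comprise 13 deacetylases, 7 acetyltransferases, 11 genes of DNA methylation and 8 histone methyltransferases. Polyadenylated RNA had been measured in the medial prefrontal cortex of wild-type male 129SvEv mice, taken after a remote memory was retrieved. The labels give 2 groups, 3 libraries named CFC and 4 named SC, without spelling out the names. They give no age, no agent and no allele other than wild type, and they do not say whether each library came from 1 animal, so the p-values measure the spread between libraries, which may in part be technical. The only values used are those of the authors' comparison of the groups, namely a mean normalized count over libraries, a log2 fold change, its standard error and its p-values; values of single libraries were not analysed here. Neither the labels nor the header say which group is the numerator, so a difference is called positive or negative after its sign in the table, and no group is called higher. Log2 fold changes are printed with their standard error (SE) after a ± sign.

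Histone acetyltransferases add acetyl groups to lysines of histone tails, which loosens chromatin and marks active promoters and enhancers, and histone deacetylases remove them. The Kmt2 enzymes methylate the lysine of histone H3 that marks active promoters and enhancers, whereas the Ehmt and Ezh enzymes place methyl marks found on silent genes. Dnmt enzymes methylate cytosine at CpG dinucleotides, Tet enzymes oxidize that mark towards removal, Mbd proteins bind it, and Gadd45 proteins are stress- and activity-induced partners of demethylation. In neurons these enzymes are known for tuning activity-dependent transcription, and several are tied to memory formation in mice.

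None of the regulators passed the threshold of 0.05 on the adjusted p-value. The authors' deposited table (Wald test of DESeq2, p-value adjusted by the authors) gave 0 of the 38 members that have an adjusted p-value, against 67 of 13060 genes, or 0.513%, over the whole table. Before adjustment, 7 of 39 members had a p-value under 0.05, a share of 17.9%, against 6.82% of the 17729 genes with a p-value. These were the acetyltransferase genes Kat6a, Crebbp and Kat2b, the H3K4 methyltransferase genes Kmt2d, Kmt2a and Kmt2c, and the demethylation gene Tet1. All 7 were positive, and 4.04% of all genes were both positive and under this limit. The deacetylases had 0 of 13 under it. Among well-counted genes, those with a mean count of at least 1000, the shares under this limit were 5 of 24 members and 10.6% of 4242 genes. In size, the differences were small. The log2 fold changes of the 39 members in the authors' deposited table ran from -0.14 to 0.24. Of them, 33 were below 0.15 in absolute value. They were not smaller than those of other genes. The median absolute log2 fold change was 0.09 for the members and 0.07 for the genes with an adjusted p-value. With a mean count of at least 1000, these medians were 0.09 and 0.05.

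The sign was not evenly split. The 39 members comprised 27 positive and 12 negative values and their median was 0.06 on the log2 scale, whereas the median of the 13060 genes given an adjusted p-value in the authors' deposited table was -0.0017 and 49.4% of those genes were positive. Of 95 other chromatin genes, with relatives and partners of members, described below, 65 were positive and 30 negative, or 68.4%, with a median of 0.03. The members' share was 69.2%, so this lean was not particular to them. Acetyltransferases had 5 of 7 positive and a median of 0.11, DNA methylation genes 10 of 11 and a median of 0.10, and histone methyltransferases 7 of 8 and a median of 0.09. Among the positive DNA methylation genes, the Gadd45 trio and Dnmt3b had standard errors from 0.21 to 0.33, wider than their estimates or nearly so. Mbd2 was at 0.0056 ± 0.10, so the signs of these genes are not resolved. Deacetylases had 5 of 13 positive and a median of -0.0093. Differences between these classes were not tested, because the genes share the same libraries.

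**Figure D1:**
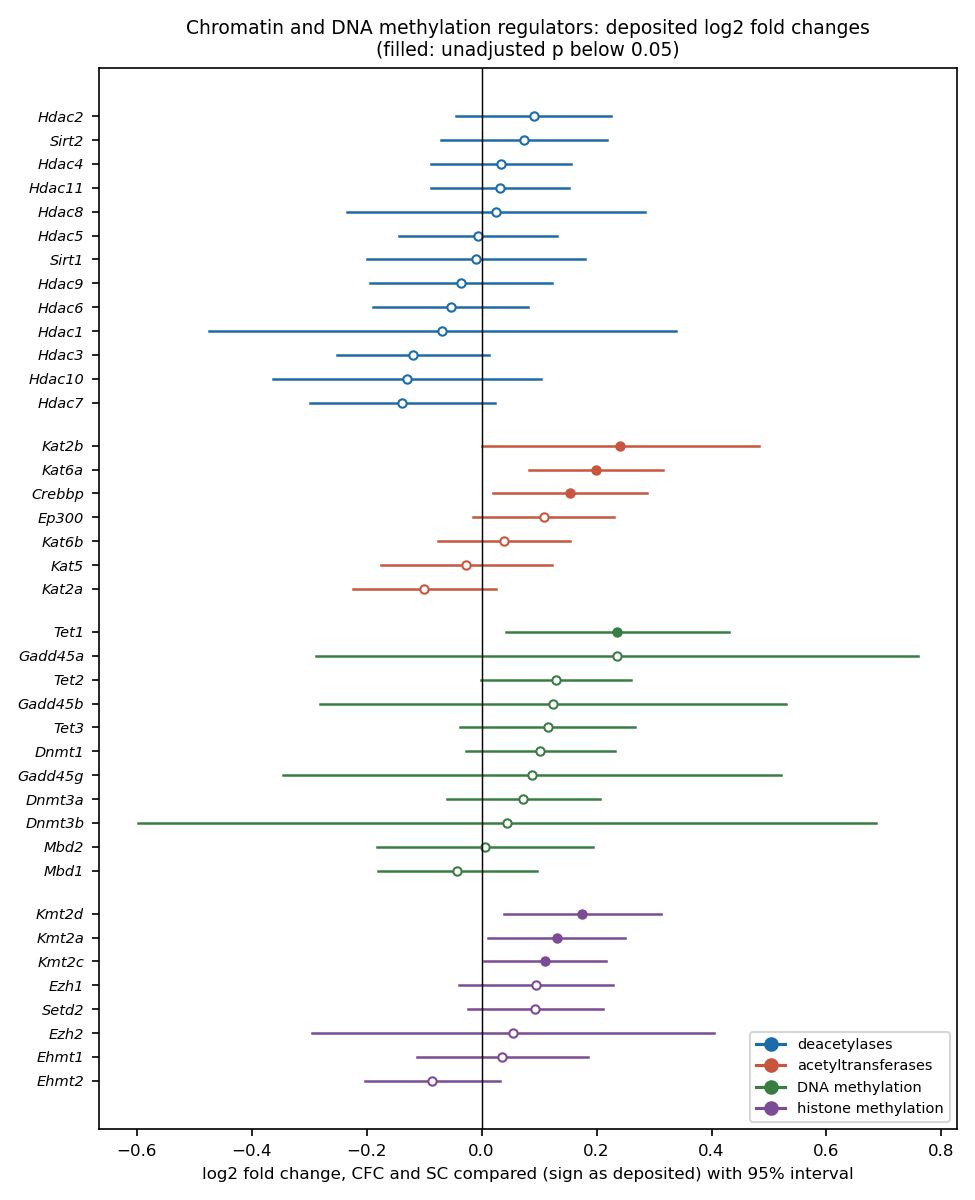
Deposited log2 fold change (horizontal axis, sign as deposited) of the 39 regulators, grouped by class, with lines for the 95% interval computed from the deposited standard error and filled points for an unadjusted p-value under 0.05. The 7 filled points are all to the right of 0 and none is a deacetylase.

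The intervals bound what could have been missed. A 95% interval was computed for each fold change from its standard error, on the normal distribution. For 24 of the 39 members it lay wholly within a 1.2-fold difference in either direction, and for 37 within 1.5-fold. The 2 exceptions were Gadd45a and Dnmt3b, which had the lowest mean counts of the list, at 46.0 and 27.5 in the authors' deposited table. Dnmt3b, at that count, was given no adjusted p-value by the authors. Over the 13060 genes given one, 6147 intervals lay within 1.2-fold and 11481 within 1.5-fold. Where well counted, at 1000 mean counts or more, 20 of 24 members and 3615 of 4242 genes had an interval within 1.2-fold. At such counts, narrow intervals were thus not particular to the members.

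To show the CpG content of the regulators' own control regions, RefSeq promoter windows on GRCm38.p6 are printed for the 3 members of lowest p-value that have exactly 1 such window. Each window runs from 250 bases before the start site to 50 bases after, written 5′ to 3′ on the gene's strand, with CpG dinucleotides, the substrate of Dnmt and Tet enzymes, in capitals. That of Kmt2d is chr15:98871156-98871455, that of Tet1 is chr10:62887275-62887574 and that of Crebbp is chr16:4213355-4213654, all on the minus strand.
Kmt2d: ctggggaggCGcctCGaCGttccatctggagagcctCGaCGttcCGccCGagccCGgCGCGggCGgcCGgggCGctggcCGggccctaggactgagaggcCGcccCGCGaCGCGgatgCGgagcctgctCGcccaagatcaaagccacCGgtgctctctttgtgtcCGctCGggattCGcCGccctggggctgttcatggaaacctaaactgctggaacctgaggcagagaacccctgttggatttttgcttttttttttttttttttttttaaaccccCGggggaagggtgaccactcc
Tet1: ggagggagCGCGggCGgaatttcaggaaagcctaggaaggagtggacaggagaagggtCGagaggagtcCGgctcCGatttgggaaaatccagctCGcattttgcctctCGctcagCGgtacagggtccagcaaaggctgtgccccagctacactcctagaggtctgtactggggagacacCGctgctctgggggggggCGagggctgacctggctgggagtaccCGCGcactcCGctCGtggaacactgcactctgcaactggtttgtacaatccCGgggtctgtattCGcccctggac
Crebbp: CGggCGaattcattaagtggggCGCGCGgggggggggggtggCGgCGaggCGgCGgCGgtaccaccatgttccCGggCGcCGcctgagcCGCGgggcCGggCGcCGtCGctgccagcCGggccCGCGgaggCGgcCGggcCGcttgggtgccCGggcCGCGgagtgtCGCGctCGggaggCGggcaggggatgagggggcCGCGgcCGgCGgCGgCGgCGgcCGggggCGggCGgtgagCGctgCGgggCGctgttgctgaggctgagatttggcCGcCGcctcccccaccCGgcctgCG
Kmt2d has 27 CpG dinucleotides in its window, Tet1 has 17 and Crebbp has 49. Their ratios of observed to expected CpG were 0.917, 0.607 and 1.02. Windows were found for 33 of the 39 members, 45 in all, with a median of 27 CpG dinucleotides, against 20 in the 13339 windows of genes with an adjusted p-value. A ratio of at least 0.6, typical of CpG-rich promoters, was found in 75.6% of the members' windows and 68.0% of those of the tested genes. The Tet1 and Crebbp windows lie wholly inside their genes as GENCODE M21 draws them, so that both genes have a start site farther upstream in that annotation.

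Motifs of activity-regulated factors were searched on both strands of the same windows. The full cAMP response element TGACGTCA was in 0 of the 45 windows and in 3.02% of those of tested genes. Its half-site TGACG, which the full element contains, was in 20% of the members' windows (Hdac4, Hdac5, Hdac11, Sirt1, Kat2a, Kat2b, Kat5 and Tet2) and in 30.4% of those of tested genes. The Egr motifs GCGGGGGCG or GCGTGGGCG were in 4 windows, or 8.89%, against 6.57%, the AP-1 motif TGANTCA in 3, or 6.67%, against 4.81%, and the E-box CACGTG in 8, or 17.8%, against 9.66%. None of these was in the 3 windows printed. A match is a string of letters and not a shown site.

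Levels differed widely within the list. Mean normalized counts were divided by the merged exon length of GENCODE M21, because a long transcript yields more fragments. The longest transcript of a gene can be much shorter than its merged exons. It has 2117 bases against 5035 for Sirt2, and 9685 against 16642 for Dnmt3a. The order of levels given here therefore depends on the length used. Ehmt2, which places a silencing methyl mark, had the highest level at 721 mean counts per kb, followed by Hdac11 at 559.8, Kmt2a at 445, Kat2a at 413.2 and Hdac3 at 413.1. The maintenance methyltransferase Dnmt1 stood at 222 and the de novo enzyme Dnmt3a at 182 mean counts per kb, while the other de novo enzyme, Dnmt3b, was lowest of all at 5.38. Ezh1 was at 209.7 and its paralog Ezh2, the form of dividing cells, at 19.0 mean counts per kb. Tet2 and Tet3 were at 135 and 113, and Tet1 at 28.3 mean counts per kb. As the counts are means over both groups, no spread between libraries can be given with these levels.

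**Figure D2:**
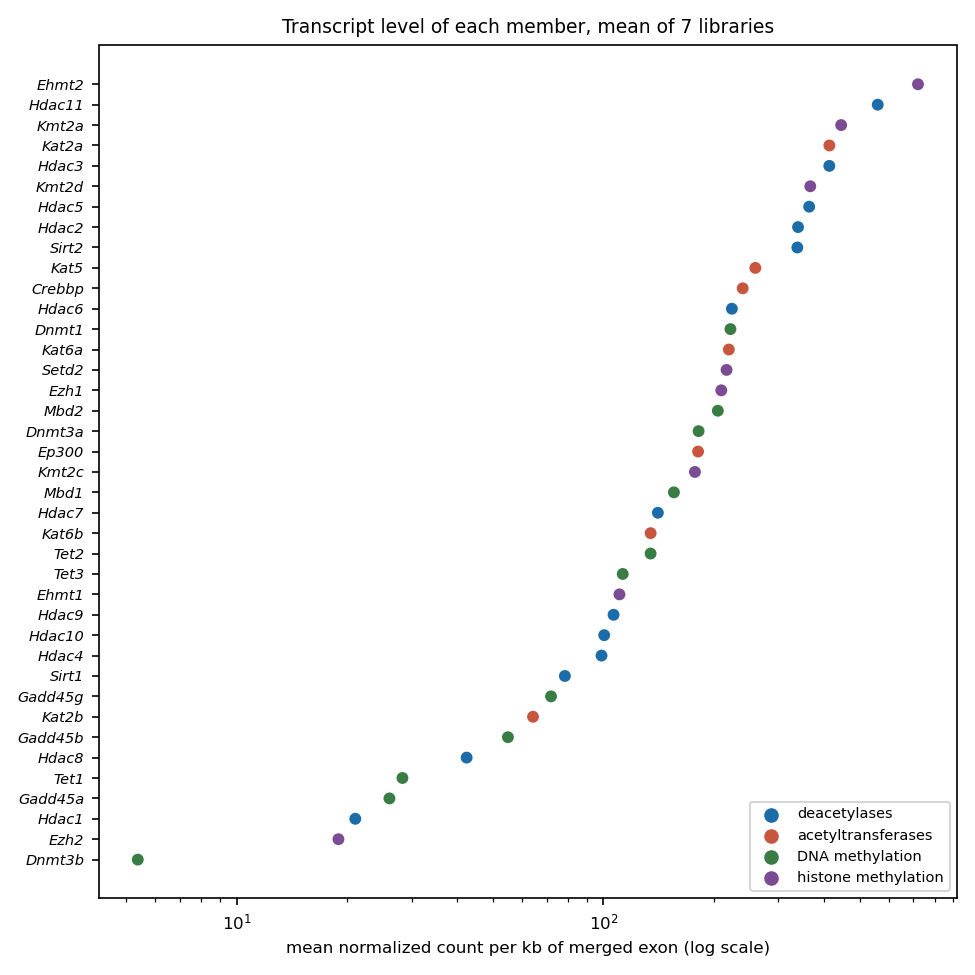
Mean normalized count per kb of merged exon (horizontal log axis) of each of the 39 regulators, averaged by the authors over all 7 libraries, coloured by class. Ehmt2 is highest at 721 and Dnmt3b lowest at 5.38.

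Among the acetyltransferases, Kat6a (ENSMUSG00000031540), which encodes a MYST-family enzyme, had the smallest p-value of all 39 members. It lies on chromosome 8 from 22859535 to 22943259 on GRCm38 (mm10). In the authors' deposited table its mean count was 2018 and its log2 fold change 0.20 ± 0.06. The 95% interval ran from 0.08 to 0.32, a change of 14.8% at the estimate. The unadjusted p-value in the authors' deposited table was 8.12e-04 and the adjusted one 0.108, while Benjamini-Hochberg adjustment of the same p-values gave 0.0973 over the 13060 genes to which the authors gave an adjusted p-value and 0.125 over all 17729 genes with a p-value. Under the 8 alternatives tried, its adjusted p-value ran from 0.0900 to 1. The upper end came only from a Bonferroni adjustment and a null of at most 1.2-fold. Without them the highest value was 0.157. Its paralog Kat6b had a log2 fold change of 0.04 ± 0.06 and adjusted p = 0.995 in the authors' deposited table, and the difference between the pair was not tested.

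Crebbp (ENSMUSG00000022521) encodes CBP, the coactivator that binds phosphorylated CREB. It stood at 0.15 ± 0.07 in the authors' deposited table, with a mean count of 3247, a 95% interval from 0.02 to 0.29, unadjusted p = 0.0245 and adjusted p = 0.513. Ep300, which encodes the closely related p300, stood at 0.11 ± 0.06 and adjusted p = 0.784 in the authors' deposited table. The pair thus had the same sign, with intervals that overlap over most of their length. Kat2b, which encodes PCAF, had the largest log2 fold change of the list, 0.24 ± 0.12, unadjusted p = 0.0495 and adjusted p = 0.647 in the authors' deposited table. Its mean count was 313, its interval ran from 4.9e-04 to 0.48, and its unadjusted p-value was no longer under 0.05 when the Wald statistics were divided by their robust SD over all genes. Of the Kat2b transcript, 7.75% of stretches of 50 bases also occur in the pseudogene Kat2b-ps. Its paralog Kat2a, which encodes GCN5, had the opposite sign, -0.10 ± 0.06 (mean count 1438, interval from -0.22 to 0.03, unadjusted p-value 0.119, adjusted 0.831) in the authors' deposited table. Kat5, which encodes TIP60, had a log2 fold change of -0.03 ± 0.08 in the authors' deposited table, and 12.1% of its exon bases overlap Rnaseh2c on the opposite strand. As the strand setting of the counting is not given in the sources used here, reads of such pairs cannot be told apart.

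The deacetylases had the class median closest to 0. Among class I, the nuclear enzymes of corepressor complexes, Hdac2 had a log2 fold change of 0.09 ± 0.07 and adjusted p = 0.906 in the authors' deposited table. Hdac2 is the deacetylase best known as a brake on memory in mice, and its 95% interval ran from -0.04 to 0.23. Hdac3, the catalytic subunit of the NCoR complex, was on the negative side at -0.12 ± 0.07 at a mean count of 1675, unadjusted p = 0.0779 and adjusted p = 0.768 in the authors' deposited table. Its interval, from -0.25 to 0.01, reached past 0 by a small margin. Hdac8, with 205 mean counts, had a log2 fold change of 0.02 ± 0.13 in the authors' deposited table. Hdac1 is uncertain, because 58.7% of the stretches of 50 bases of its transcript also occur in other genes, 56.4% in the processed pseudogene Gm10093. The authors' deposited table put it at -0.07 ± 0.21 on the log2 scale, at a mean count of only 72.6.

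Class IIa deacetylases shuttle between nucleus and cytoplasm with neuronal activity and bind Mef2 factors. Hdac4, whose loss impairs memory, had a log2 fold change of 0.03 ± 0.06 in the authors' deposited table, and Hdac5 one of -0.0059 ± 0.07. Hdac7 was the most negative member at -0.14 ± 0.08, unadjusted p = 0.0922 and adjusted p = 0.797 in the authors' deposited table. Hdac9 stood at -0.04 ± 0.08 (mean count 1564, interval from -0.19 to 0.12, unadjusted p-value 0.659, adjusted 0.999) in the authors' deposited table. Of Hdac4, 22.4% of exon bases overlap the opposite-strand gene Gm26720. For class IIb, the tubulin deacetylase gene Hdac6 had a log2 fold change of -0.05 and Hdac10 one of -0.13 in the authors' deposited table (SE 0.07 and 0.12). Hdac11, the only class IV enzyme, had a log2 fold change of 0.03 ± 0.06 (mean count 2155, interval from -0.09 to 0.15, unadjusted p-value 0.609, adjusted 0.999) in the authors' deposited table, and 15.4% of its exon bases overlap Gm44002. The NAD-dependent enzymes Sirt1 and Sirt2 measured -0.0093 and 0.07 (SE 0.10 and 0.07) in the authors' deposited table.

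In the DNA methylation class, all 3 Tet genes were positive. Tet1 (ENSMUSG00000047146), tied in mice to memory and extinction, had a log2 fold change of 0.24 ± 0.10, unadjusted p = 0.0167 and adjusted p = 0.439 in the authors' deposited table. Its 95% interval, from 0.04 to 0.43, was wider than that of most members, at a mean count of 438. Tet2 had a log2 fold change of 0.13 ± 0.07 and unadjusted p = 0.0508 in the authors' deposited table, just outside the limit. Tet3, the form described as activity-induced in neurons, had 0.11 ± 0.08 (mean count 1885, interval from -0.04 to 0.27, unadjusted p-value 0.139, adjusted 0.859) in the authors' deposited table. The methyltransferases were also positive but nearer to 0, Dnmt1 at 0.10, Dnmt3a at 0.07 and Dnmt3b at 0.04 (SE 0.07, 0.07 and 0.33) in the authors' deposited table. Of the Dnmt3b transcript, 11.5% of stretches of 50 bases occur in Dnmt3c, so that its low count is uncertain too. The readers Mbd1 and Mbd2 measured -0.04 and 0.0056 (SE 0.07 and 0.10) in the authors' deposited table.

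The Gadd45 trio, short genes known for brief induction by neuronal activity, was positive but not resolved. Gadd45a had a log2 fold change of 0.24 ± 0.27, a 95% interval from -0.29 to 0.76, unadjusted p = 0.378 and adjusted p = 0.985 in the authors' deposited table. Gadd45b had 0.12 ± 0.21, an interval from -0.28 to 0.53, unadjusted p = 0.550 and adjusted p = 0.998 in the authors' deposited table. Gadd45g had 0.09 ± 0.22, an interval from -0.35 to 0.52, unadjusted p = 0.693 and adjusted p = 0.999 in the authors' deposited table. Their mean counts were 46.0, 87.3 and 84.5, and each interval reached past a 1.2-fold difference in both directions, so differences of that size were not detectable at this depth. Of Gadd45a, 19.1% of exon bases overlap the opposite-strand transcript E230016M11Rik. A list of 14 other activity-induced genes held 12 positive genes and a median log2 fold change of 0.08. On the adjusted p-value 1 of them, Nr4a3, was under 0.05 in the authors' deposited table, against 0.513% of all tested genes. Before adjustment 6 were under it, against 6.82% of all genes. Of these 5 were positive, namely Egr2 (1.06 ± 0.36, at a mean count of 37.2), Fos (0.73 ± 0.26), Nr4a2 (0.50 ± 0.18), Nr4a3 (0.42 ± 0.10) and Egr1 (0.41 ± 0.19). The other 1, Egr3, was negative at -0.24 ± 0.08. Among the 12 positive genes, Arc (0.0017 ± 0.35), Egr4 (0.0048 ± 0.13) and Dusp1 (0.01 ± 0.11) were close to 0.

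All 3 Kmt2 genes on the list were positive and under 0.05 before adjustment. Kmt2d (ENSMUSG00000048154) had a log2 fold change of 0.18 ± 0.07, a 95% interval from 0.04 to 0.31, unadjusted p = 0.0119 and adjusted p = 0.389 in the authors' deposited table. Kmt2a, whose loss in prefrontal neurons impairs working memory in mice, had 0.13 ± 0.06, an interval from 0.01 to 0.25, unadjusted p = 0.0312 and adjusted p = 0.561 in the authors' deposited table. Kmt2c had 0.11 ± 0.05, an interval from 0.0048 to 0.22, unadjusted p = 0.0405 and adjusted p = 0.610 in the authors' deposited table. They are among the most deeply counted members, with mean counts of 7307, 7418 and 3606, where differences of 7.96% (Kmt2c) to 12.9% (Kmt2d) at the estimate were under this limit. Kmt2b, of the same family but outside the list, had a log2 fold change of 0.0056 ± 0.07 in the authors' deposited table. The other methyltransferases did not reach the limit. Setd2, which places the mark of transcribed gene bodies, stood at 0.09, Ezh1 at 0.09 and Ezh2 at 0.06 (SE 0.06, 0.07 and 0.18) in the authors' deposited table. The partners in silencing methylation had opposite signs, Ehmt1 at 0.04 ± 0.08 and Ehmt2 at -0.09 ± 0.06 (mean count 3957, interval from -0.20 to 0.03, unadjusted p-value 0.153, adjusted 0.875) in the authors' deposited table.

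Long members were mostly positive. Of the 16 members with at least 8000 bases of merged exon, 14 were positive, their median on the log2 scale was 0.11, and 6 had an unadjusted p-value under 0.05. Of the 23 shorter members, 13 were positive, with a median of 0.02, and 1 was under it, namely Kat2b. In the whole table, 11.0% of the long and 7.37% of the shorter genes that have an adjusted p-value were under it. The same lean with length ran through the whole table, where 63.1% of the 2614 long genes and 46.0% of the 10444 shorter genes with an adjusted p-value were positive, with medians of 0.03 and -0.01. Among genes of 12000 bases or more the share was 68.7% of 850, with a median of 0.04, beside 11 of 12 members and a median of 0.11. Spearman's rho between exon length and log2 fold change, given as a description across genes that share libraries, was 0.17 over 13058 genes and 0.37 over the 39 members. After the median of genes of like length was subtracted, the class medians were 0.06 for acetyltransferases, 0.08 for DNA methylation, 0.06 for histone methylation and -0.02 for deacetylases. The Wald statistic was also regressed on the logarithm of length, the square of that logarithm, GC content and the logarithm of mean count. After this regression 3 of 38 members, Kat6a, Kmt2d and Crebbp, had an unadjusted p-value under 0.05. This share, 7.89%, was near the 7.11% of all genes in the same regression, so it is not a result about the members. All 3 were positive, and 4.01% of all genes were both positive and under this limit. By sign, 25 of the 38 members were positive after the regression and 13 negative. The adjusted p-value of Kat6a after the regression was 0.157. The part of length in the differences was not tested beyond these values.

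**Figure D3:**
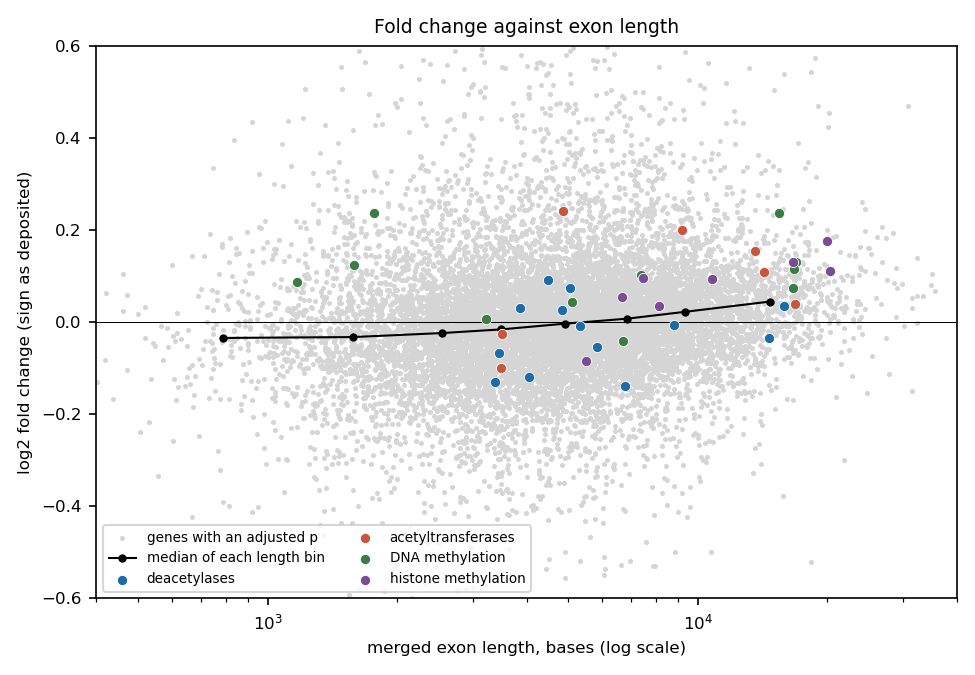
Deposited log2 fold change (vertical axis) against merged exon length (horizontal log axis) for genes with an adjusted p-value in grey, bin medians in black and the 39 regulators coloured by class. The bin medians climb from -0.03 below 1000 bases to 0.04 from 12000 bases, and 150 grey genes lie outside the plotted range.

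Other chromatin genes, 95 in 6 lists written from general knowledge but with earlier results of these data known, were read beside the members. The lists also hold relatives and partners of members. Among these are Sirt3, Sirt4 and Sirt5, which encode mitochondrial enzymes, and the transcription factor genes Mef2a, Mef2c and Mef2d. Of the 94 listed genes with an adjusted p-value in the authors' deposited table, the demethylase gene Kdm6b alone (1 gene) passed the threshold. Before adjustment, 4 of 95, or 4.21%, had a p-value under 0.05. Kdm6b (ENSMUSG00000018476, chromosome 11 from 69398508 to 69413675 on GRCm38) encodes JMJD3, which removes the silencing mark that Ezh enzymes place on histone H3. Its log2 fold change was 0.44 ± 0.10, a 95% interval from 0.26 to 0.63 and adjusted p = 0.00235 in the authors' deposited table. This is a 1.36-fold difference at a mean count of 775, and against a null of at most 1.2-fold its adjusted p-value was 1. Kdm6a, the paralog, was on the other side of 0 at -0.08 ± 0.08 in the authors' deposited table. Over the 16 demethylases, 12 were positive, with a median log2 fold change of 0.07.

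The partners of the members were mostly near 0. Of 23 genes of deacetylase complexes or Mef2 factors, 16 were positive, the median was 0.05 and 0 had an unadjusted p-value under 0.05. The lowest p-values were those of Gatad2b (0.0531) and Mef2a (0.107) in the authors' deposited table. The 5 sirtuins outside the list were all negative, with a median of -0.09, among them Sirt6 at -0.20 and Sirt3 at -0.15, whose unadjusted p-values were 0.0794 and 0.0540 in the authors' deposited table. Among 16 acetyltransferases, acetyl readers and CREB partners, 12 were positive and the median was 0.03. The gene of lowest p-value there was negative: Crtc1, a coactivator of CREB, had a log2 fold change of -0.19 ± 0.06, unadjusted p = 0.00132 and adjusted p = 0.137 in the authors' deposited table. The second was Ncoa3, at 0.12 with unadjusted p = 0.110 in the authors' deposited table. Of 24 further histone methyltransferases and partners, 19 were positive and the median was 0.03, led by Setd1b at 0.18 (unadjusted p-value 0.0154, adjusted 0.426) and Kmt5b at 0.11 (unadjusted p-value 0.0791) in the authors' deposited table. Among 11 DNA methylation readers and repair genes, 6 were positive and the median was 0.0024. Uhrf1, which recruits Dnmt1 to newly copied DNA, stood apart at 1.71 ± 0.49 and unadjusted p = 5.27e-04 in the authors' deposited table, at a mean count of 26.1. The authors gave Uhrf1 no adjusted p-value, and without a filter on the mean count it was 0.0963. Zbtb4, of the next lowest p-value, was at -0.06 with unadjusted p = 0.271 in the authors' deposited table.

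**Figure D4:**
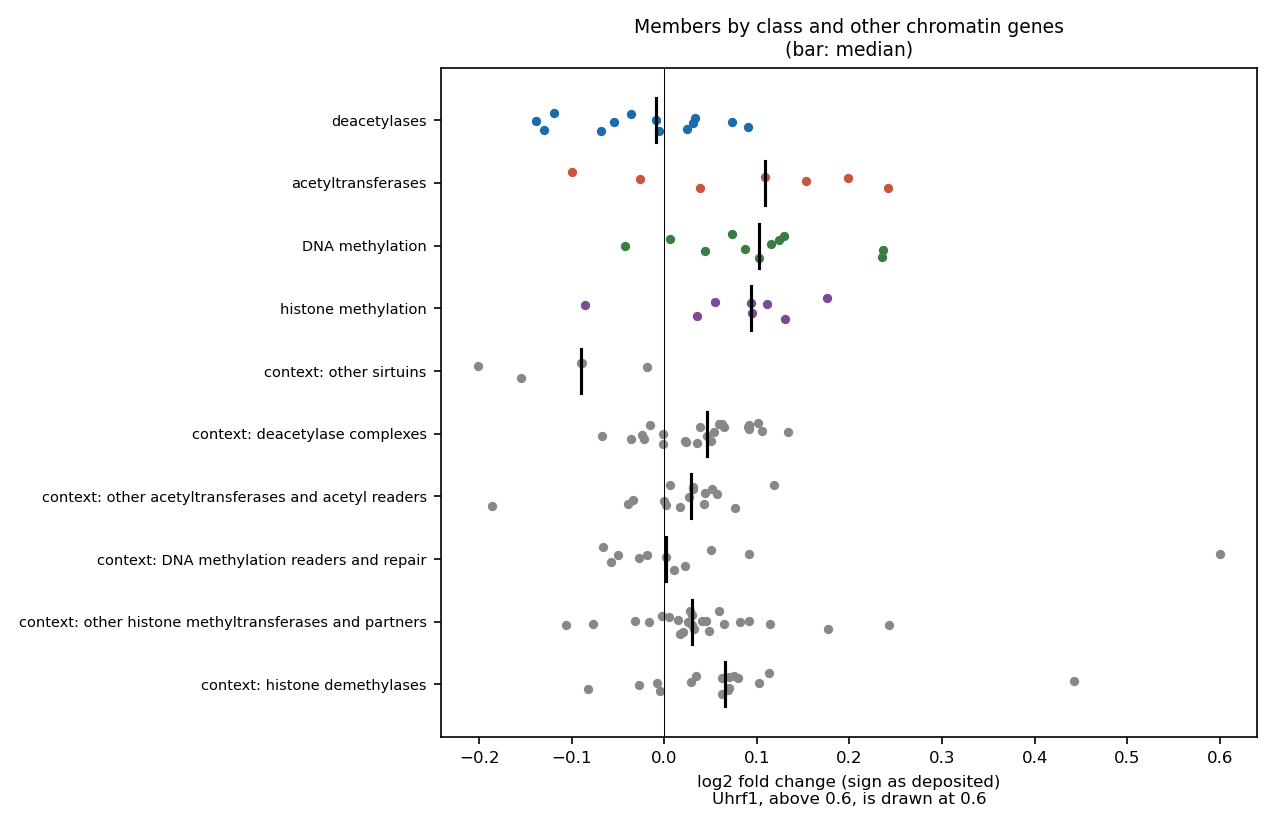
Deposited log2 fold change (horizontal axis) of every member by class, in colour. In grey are 95 other chromatin genes, with relatives and partners of members, in 6 lists. A black bar stands at each median. The bars of acetyltransferases, DNA methylation and histone methylation genes lie between 0.09 and 0.11, that of the deacetylases at -0.0093, Kdm6b is the grey point at 0.44, and Uhrf1, at 1.71, is drawn at 0.6.

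Marker lists of oligodendrocytes, cortical layers and striatal neurons had medians larger in size than the log2 fold change of any member. These lists were drawn up with earlier results of these data known, so their counts are a description only. In the authors' deposited table, 15 of 15 oligodendrocyte markers were positive and their median log2 fold change was 1.15, as were 11 of 11 deep-layer markers with a median of 0.57 and 7 of 7 striatal markers with a median of 0.76. Of the upper-layer markers there, 8 of 9 were negative with a median of -0.27. On the adjusted p-value, 6 deep-layer, 2 upper-layer, 1 striatal, 1 general neuronal and 0 oligodendrocyte markers passed the threshold, and 14 of the last had an unadjusted p-value under 0.05. The general neuronal marker called was Camk2a, a kinase gene of excitatory neurons, at -0.29 ± 0.06 with adjusted p = 0.00151 in the authors' deposited table, and Rbfox3, the gene of the nuclear protein NeuN, stood at -0.17 ± 0.07 with unadjusted p = 0.0165. The remaining general neuronal markers were nearer to 0 and not under 0.05 before adjustment. They were Slc17a7 (-0.03), Snap25 (-0.0075), Gad1 (-0.01), Syt1 (0.0079) and Gad2 (0.09). Medians were -0.01 over 7 general neuronal, -0.07 over 6 astrocyte, -0.11 over 6 microglial and -0.16 over 4 endothelial markers. Fewer cells of a type and less RNA per cell cannot be told apart in bulk tissue, and the part of tissue makeup in the members' values was not tested. Sirt2, a deacetylase abundant in oligodendrocytes, stood at 0.07 ± 0.07 with a 95% interval from -0.07 to 0.22 in the authors' deposited table. It was named after its value was seen, and a value of bulk tissue cannot be assigned to a cell type. The oligodendrocyte markers also had standard errors with a median of 4.71 times that of genes of like mean count, whereas those of the 39 members were between 0.885 and 1.21 times it. The largest ratios of the list were those of Kmt2d (1.21), Tet3 (1.18) and Hdac9 (1.16).

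**Figure D5:**
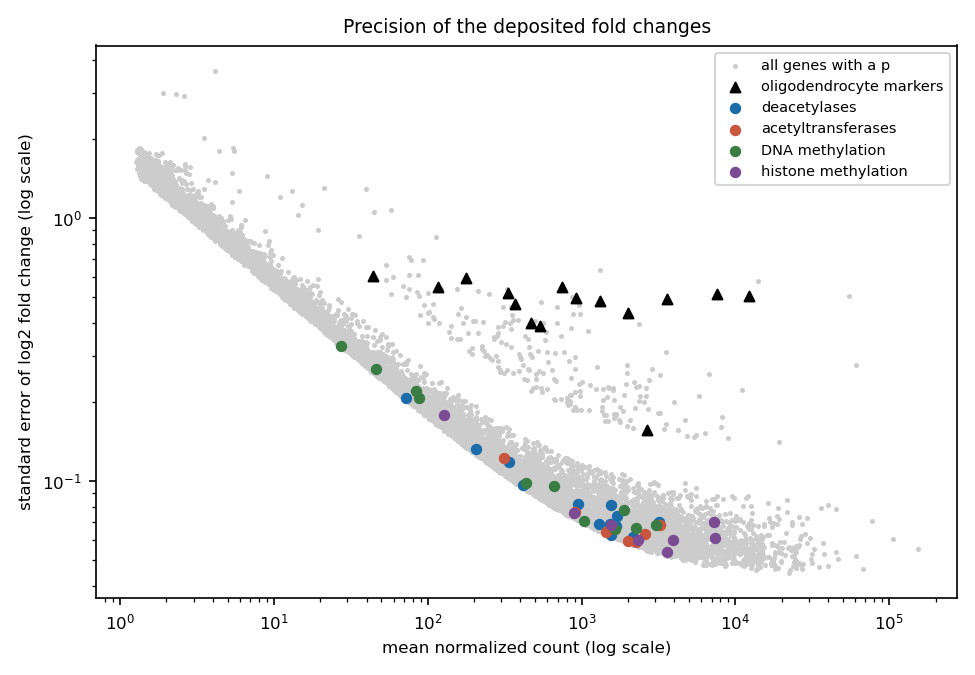
Standard error of the deposited log2 fold change against mean normalized count, both on log axes, for all genes with a p-value in grey, the 39 regulators in colour and 15 oligodendrocyte markers as black triangles. The regulators lie within the main band of genes and the markers above it.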

How the data were processed

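Polyadenylated RNA of 7 libraries (3 CFC, 4 SC) was prepared from 100 ng of total RNA with the KAPA mRNA HyperPrep kit, per the labels. Trimmomatic, Subread and DESeq2 and the build mm10 are named in the submitters' processing notes, without versions. The annotation, strand setting and depth of each library are not given in the sources used here. The deposited file is 1 table of the authors' comparison. Per the file headers it holds the mean normalized count (a signal, the authors' average over libraries), the fold change on the log2 scale with its standard error, the Wald score, the p-value and the adjusted p-value. The deposited score was, wherever a p-value is given, equal to the quotient of fold change (log2) and error, within 1e-6. The deposited adjusted p-values were up to 1.11 times (median 1.01) those of a Benjamini-Hochberg adjustment over the genes that have one, so the authors may have adjusted over other genes; each recomputed alternative adjusts over the genes it tests. An adjusted p-value is given for 13060 genes, all with a mean count of at least 34.9. As counts per library were not analysed here, the authors' own unadjusted and adjusted p-values were used in place of a refit.

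Members and lists were chosen with earlier results of these data known. Full statistics are given for members with an unadjusted p-value under 0.05, the 5 largest fold changes, the 5 highest levels per kb, the 3 widest errors for their abundance and the Gadd45 trio. Of the other chromatin genes, those called are named, or else the 2 of lowest p-value in each list; further genes named were chosen after their values were seen. Lengths, overlaps and stretches of 50 bases shared between genes came from GENCODE M21 (GRCm38, the same assembly as mm10), which held 17726 of the 17732 gene IDs. Promoter windows are RefSeq's. Running medians spanned 501 genes. Alternatives were computed with numpy 2.4.6 and scipy 1.17.1 in Python 3.11.15 and checked on simulated data.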

Additional observations from a re-analysis of the deposited data

How the results depend on the processing

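No paired analysis was possible because only group-level results, without values of single libraries, were at hand, and for the same reason fits without single replicates, with a replicate block or with another count tool were not run. The count of members under 0.05 on the adjusted p-value was 0 under all 9 alternatives tried, among them a threshold of 0.1 on the deposited value. At that threshold Kat6a would pass where the adjustment was recomputed at a mean count of at least 100 (0.0900) or over the 13060 genes to which the authors gave an adjusted p-value (0.0973, chosen after seeing the data), but not over all genes with a p-value (0.125). The 7 members with an unadjusted p-value under 0.05 became 3 after regression on length, GC content and mean count, an alternative chosen after seeing the data, and 0 against a null of at most 1.2-fold. For members, counts against this null were fixed at 0 in advance. The largest log2 fold change of the list, 0.24, is below the 0.26 of a 1.2-fold difference, so this alternative tests nothing here. The 7 members became 6 after division by the robust SD, also chosen after seeing the data. They stayed 7 with a mean count of at least 100, which was fixed in advance too. That filter leaves unadjusted p-values as they are, and the lowest mean count of the 7 was 313. Over all genes the 67 calls became 21 with a Bonferroni adjustment, 2 against a null of at most 1.2-fold and 101 at a threshold of 0.1; the first pair is stricter by construction. The single call among the other chromatin genes, Kdm6b, was lost (0 genes) against the null of at most 1.2-fold and stood in the other 7 alternatives. Class values kept the sign of their median in all 12 alternatives computed. For each class these were the median with a mean count of at least 100, a weighted mean, and the median after subtraction by length. The last was chosen after seeing the data. The filter on mean count left acetyltransferases and histone methyltransferases unchanged by construction, as none of them has a mean count below 100. The 5 members with a mean count below 100 were the Gadd45 genes, Dnmt3b and Hdac1, whose standard errors were the widest of the list, from 0.21 to 0.33.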
